A study of Homo sapiens with 10 samples.

Results

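Chromosomes 6 and 18 were cut, on the hg38 build, into windows of 0.25 Mb, and the fragment counts of all genes whose midpoint fell in a window were summed in each RNA-seq library. Windows with a sum of at least 100 over the 10 libraries were kept. This left 335 of the 619 windows of chromosome 6 that hold a gene and 130 of the 267 of chromosome 18, together 465 of 5909 kept windows in the genome. The kept windows held 99.96% of the counts of chromosome 6 and 99.86% of those of chromosome 18. Libraries came from T24, an established human bladder cancer cell line, and from T24R2, a cisplatin-resistant line derived from T24 by serial exposure to the drug, with 5 libraries of each line at day 3 of culture. Both lines were grown in RPMI medium with serum per the labels, which name no drug, whereas the methods of the study keep T24R2 in medium with cisplatin. Resistance and exposure cannot be told apart here. The comparison asks whether neighbouring genes on these chromosomes differ together between the lines. The measure was the log2 ratio of T24R2 to T24 in each window, on counts scaled to the effective library size (TMM) with 0.5 counts added. The windows were taken up because of their values in this same comparison. Their ratios and calls are therefore a description, and nothing is read from them as a test.

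A gain or loss of a chromosome, or of part of one, changes the copy number of many neighbouring genes at once, and their transcripts tend to follow. Such a change appears in RNA counts as a run of genes shifted in the same direction, with a step where the run begins. Aneuploid cancer lines often carry such changes. Transcription of single genes also changes without any change in DNA, and then one gene departs from its neighbours. Counts of RNA do not measure DNA copy number. Chromosome 6 carries the major histocompatibility complex, which holds the antigen-presenting HLA genes, next to large clusters of histone and zinc finger genes on its short arm. Chromosome 18 carries a cluster of desmosomal cadherins, a cluster of clade B serpin protease inhibitors and several SMAD genes, which transmit TGF-beta signals.

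The bases upstream of 6 genes are shown because the results below turn on them: MYO6 and IRAK1BP1 are the expressed genes on the left and right of the only step found, GJA1 and ME1 carry windows of opposite sign on the long arm of chromosome 6, and DSG2 and PIK3C3 do so on chromosome 18. The 190 bases run from 250 to 61 bases before the start that RefSeq gives for each gene on GRCh38.p14, 5′ to 3′ on the strand of the gene, and capitals mark every CG pair. The positions are chr6:75748989-75749178 (plus strand) for MYO6, chr6:78867301-78867490 (plus) for IRAK1BP1, chr6:121435396-121435585 (plus) for GJA1, chr6:83431112-83431301 (minus) for ME1, chr18:31497927-31498116 (plus) for DSG2 and chr18:41954984-41955173 (plus) for PIK3C3.
MYO6: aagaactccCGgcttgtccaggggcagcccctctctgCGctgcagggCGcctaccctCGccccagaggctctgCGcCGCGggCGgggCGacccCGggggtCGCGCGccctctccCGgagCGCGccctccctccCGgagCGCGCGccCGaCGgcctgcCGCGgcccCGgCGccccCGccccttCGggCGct
IRAK1BP1: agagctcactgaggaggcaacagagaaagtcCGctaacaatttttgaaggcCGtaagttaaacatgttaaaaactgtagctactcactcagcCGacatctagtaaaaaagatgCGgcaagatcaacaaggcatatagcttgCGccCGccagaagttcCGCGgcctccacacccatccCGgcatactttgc
GJA1: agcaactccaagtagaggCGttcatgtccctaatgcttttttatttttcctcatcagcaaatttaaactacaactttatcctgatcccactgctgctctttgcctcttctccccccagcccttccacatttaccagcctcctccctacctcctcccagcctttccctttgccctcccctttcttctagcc
ME1: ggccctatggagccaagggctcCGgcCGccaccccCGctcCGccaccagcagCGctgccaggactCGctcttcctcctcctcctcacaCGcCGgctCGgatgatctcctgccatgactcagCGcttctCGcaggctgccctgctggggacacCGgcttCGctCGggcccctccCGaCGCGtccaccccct
DSG2: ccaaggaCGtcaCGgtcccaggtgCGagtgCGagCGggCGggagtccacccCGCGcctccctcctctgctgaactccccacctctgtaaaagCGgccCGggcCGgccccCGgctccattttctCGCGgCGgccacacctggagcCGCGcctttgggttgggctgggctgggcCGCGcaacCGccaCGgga
PIK3C3: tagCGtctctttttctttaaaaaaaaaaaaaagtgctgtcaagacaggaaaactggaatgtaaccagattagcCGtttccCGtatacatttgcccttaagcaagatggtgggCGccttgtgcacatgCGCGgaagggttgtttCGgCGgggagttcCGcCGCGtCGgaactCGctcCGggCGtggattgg

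The CG pairs numbered 29 in MYO6, 9 in IRAK1BP1, 1 in GJA1, 17 in ME1, 21 in DSG2 and 15 in PIK3C3. Over the 22114 genes with a single RefSeq promoter entry, the median of the same stretch was 6. Of the lead genes, meaning the most counted gene of each kept window, 186 of 335 on chromosome 6 and 67 of 130 on chromosome 18 had such an entry, with medians of 15 and 17. On chromosome 6 the median was 16 both for lead genes of windows called higher in T24R2 (68 entries) and for those of windows called lower (24 entries). On chromosome 18 it was 15 for windows called higher (24 entries) and 21 for windows called lower (12 entries). The letters TGACNNNGC, the core of the antioxidant response element, were searched on both strands and occurred in ME1 at 137 bases before the start. They occurred in none of the other 5 stretches and in 7.75% of all 35116 promoter stretches. The GC box GGGCGG, on either strand, occurred in MYO6 and DSG2 and in 33% of all stretches, and CCAAT occurred in PIK3C3 and in 25.8% of all stretches. The letters TATAAA, held by 7.4% of all stretches, occurred in none of the 6. These matches describe letters only.

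Library totals ranged from 9257843 to 10840954 counts, and TMM factors were 0.936 to 0.951 in T24 and 1.04 to 1.07 in T24R2. No library was a duplicate of another, since counts of the 20 pairs from the same line varied beyond sampling (chi-square divided by its degrees of freedom, 2.01 to 7.04). Nothing in the labels says that the 5 libraries of a line came from separate cultures, and calls measure only the spread between these libraries, which may be technical. The epithelial keratins KRT7, KRT8 and KRT18 averaged 2242, 1541 and 1112 CPM (counts relative to the effective library size) in T24 and 1370, 1009 and 691 CPM in T24R2. KRT19 had 267 CPM in T24 and 0.0887 CPM in T24R2, GATA3 22.1 and 0.214 CPM, and EPCAM 4.45 and 0.13 CPM. PPARG had 75.9 and 26.2 CPM and UPK2 9.9 and 2.74 CPM, whereas KRT5, KRT20, CDH1 and UPK1B stayed under 1 CPM in both lines. The summed level of the 14 bladder and epithelial markers was 4940 to 5670 CPM in T24 libraries and 3010 to 3220 CPM in T24R2 libraries. Of 10 markers of fibroblasts, endothelium and blood, 7 were under 1 CPM in both lines, and the sum was 229 to 280 CPM in T24 and 2.06 to 4.99 CPM in T24R2, with CDH5 at 239 and 0.559 CPM and PECAM1 at 5.36 and 1.18 CPM. The part of these differences in the results below was not tested. In bulk RNA, fewer cells that express a gene and less RNA per cell cannot be told apart.

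Both chromosomes had a median window ratio above that of all kept windows, but parts of them did not. The median window ratio was 0.29 on chromosome 6 and 0.29 on chromosome 18, against 0.00 over all kept windows. Ratios above 0 were found in 225 of 335 windows of chromosome 6 (67.2%) and 86 of 130 of chromosome 18 (66.2%), against 50.3% of all windows. On the part of chromosome 6 up to 76.00 Mb the share was 54.0%. Among the 22 autosomes, only chromosome 2 had a higher median (0.35), followed by chromosome 18 and chromosome 6. The quartiles were wide, from −0.19 to 0.70 on chromosome 6 and from −0.22 to 0.65 on chromosome 18, against −0.53 to 0.46 in the genome. The share of a library's counts that fell on chromosome 6 was 4.27, 4.18, 4.21, 4.30 and 4.21% in the T24 libraries and 4.75, 4.82, 4.76, 4.85 and 4.86% in the T24R2 libraries. For chromosome 18 the shares were 0.881, 0.886, 0.903, 0.894 and 0.893% in T24 and 1.04, 1.09, 1.08, 1.08 and 1.08% in T24R2. The lines did not overlap in either share, and the means were 4.23 ± 0.047% and 4.81 ± 0.049% for chromosome 6 and 0.891 ± 0.0085% and 1.07 ± 0.017% for chromosome 18 (SD, n = 5). These shares are of library totals without TMM scaling. On that scale the median ratio of all kept windows was 0.17 in place of 0.00. A higher share in T24R2 is therefore not particular to these chromosomes, and single abundant genes weigh on it.

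**Figure D1:**
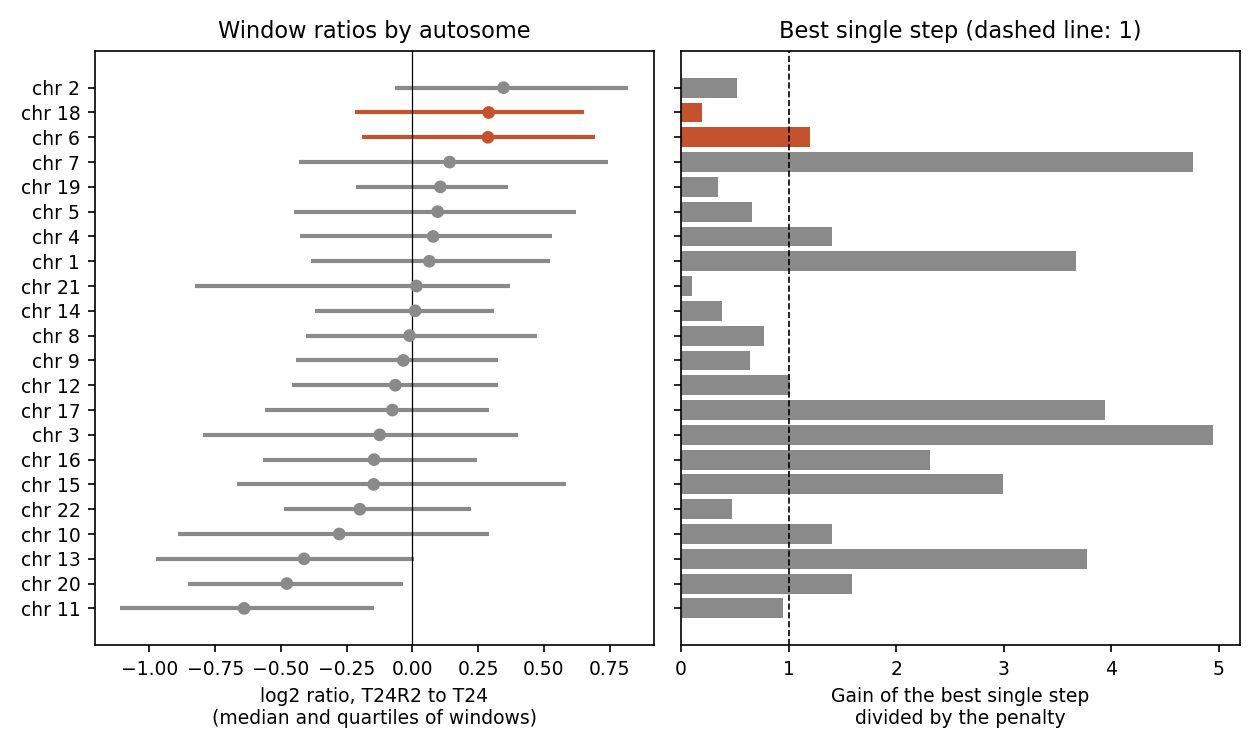
Window ratios of the 22 autosomes in order of their median. The left panel gives the median (point) and quartiles (line) of the log2 ratio of T24R2 to T24, and the right panel the gain in fit of the best single step divided by the penalty a step must exceed (dashed line at 1). Chromosomes 18 and 6 (orange) come after chromosome 2 in median, with best single steps at 0.196 and 1.2 times the penalty.

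Windows and genes were called by edgeR's quasi-likelihood test where the adjusted p-value was below 0.05 and the fold change exceeded 0.5 on the log2 scale in either direction. On chromosome 6, 121 windows (36.1%) were called higher and 49 (14.6%) lower in T24R2, and on chromosome 18, 46 (35.4%) and 23 (17.7%). In the genome, 23.6% of windows were called higher and 25.7% lower. The 5 T24R2 libraries lay above all T24 libraries in 163 windows of chromosome 6 and 63 of chromosome 18 (genome 34.8% of windows), and below them in 76 and 28 (genome 36.4%). Lines without overlap are therefore common in these data. Where genes are said below not to overlap, this describes them and does not set them apart. Of the genes tested one by one, 264 of 756 on chromosome 6 and 89 of 240 on chromosome 18 were called higher (genome 24.9%), and 128 and 39 were called lower (genome 26.5%). In either direction this gave 392 and 128 genes (genome 51.4%). The median log2 fold change of these genes was 0.29 and 0.31, against 0.01 over all 16181 genes tested. Since the chromosomes were chosen on this comparison, these shares are given beside the genome and not read as a result. With scaling by library size alone, the median of all windows moved to 0.17 and that of the genes to 0.18, and the share of calls that were higher on chromosome 6 went from 67.4% (264 higher, 128 lower) to 78.4% (337 higher, 93 lower).

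A step was sought by cutting each chromosome into segments of at least 8 kept windows that minimise the squared deviation of the ratios, with a penalty for each cut. Chromosome 6 was cut once, between 76.00 and 78.75 Mb, a stretch with no kept window. Left of the step the median ratio over 161 windows was 0.14, and right of it the median over 174 windows was 0.39, a difference of 0.25. On the left, the median in each T24R2 library relative to the T24 mean was 0.14, 0.17, 0.11, 0.14 and 0.09, whereas the T24 libraries lay between −0.01 and 0.01. On the right, the T24R2 libraries had 0.34, 0.39, 0.46, 0.46 and 0.37 and the T24 libraries −0.03 to 0.03. Without T24 replicate 2 the left median was 0.0891. The right side exceeded the left by 0.20, 0.22, 0.34, 0.32 and 0.28 in the T24R2 libraries (mean 0.27 ± 0.062, SD, n = 5), and by −0.03 to 0.03 in the T24 libraries. The cut was placed on these same libraries, and T24 libraries are relative to their own mean, so these values describe the step and do not test it. Windows above 0 made up 54.0% of the left side and 79.3% of the right side. Among tested genes, 123 of 442 on the left were called higher (27.8%) and 92 lower (20.8%). On the right, 141 of 314 were called higher (44.9%) and 36 lower (11.5%). Of all genes, 24.9% were called higher and 26.5% lower.

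**Figure D2:**
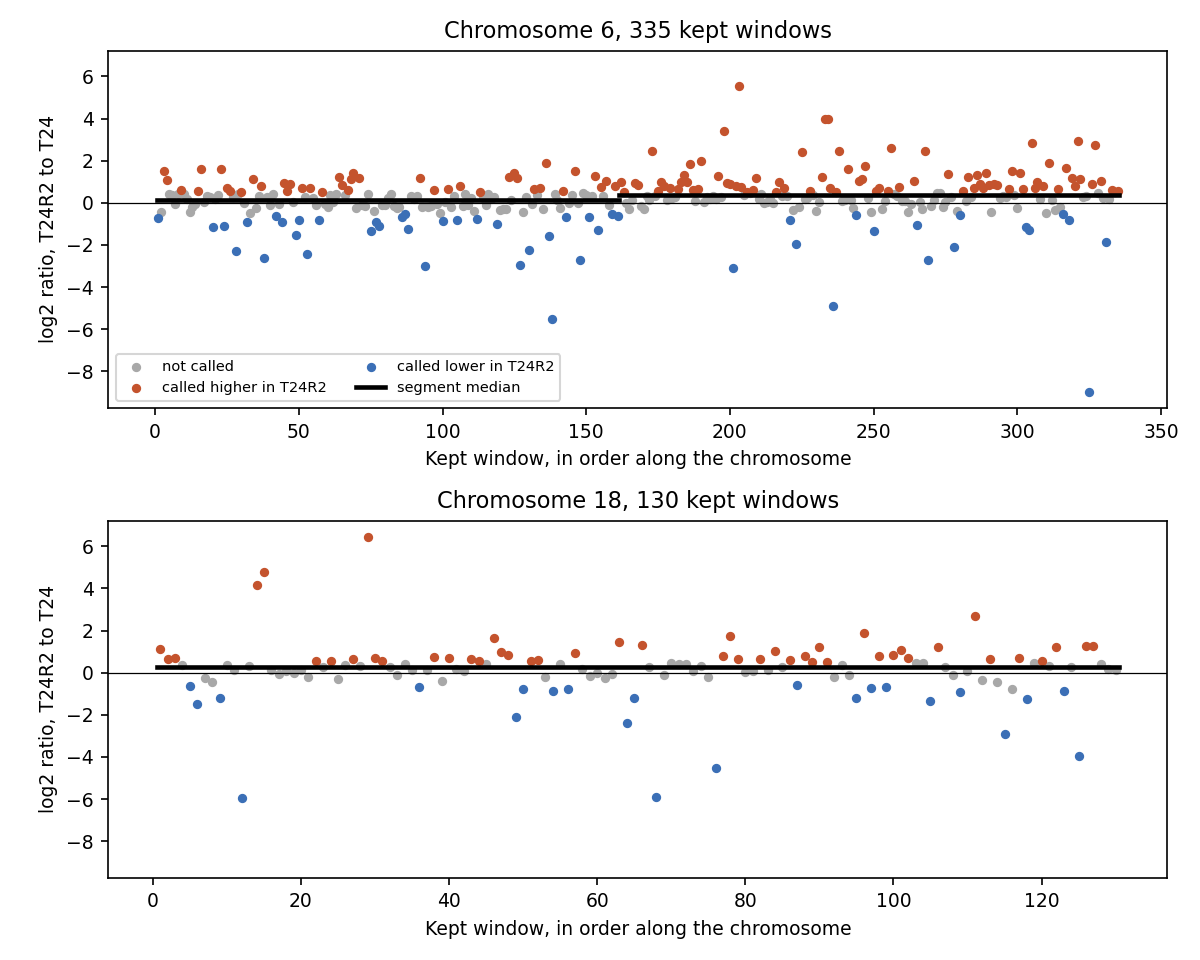
Log2 ratio of T24R2 to T24 for each kept window, in order along chromosome 6 (top) and chromosome 18 (bottom). Orange and blue points are windows called higher and lower in T24R2, grey points are not called, and black lines are segment medians (0.14 and 0.39 on chromosome 6, 0.29 on chromosome 18). Single windows reach from −8.97 to 6.45, far beyond the segment medians.

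**Figure D3:**
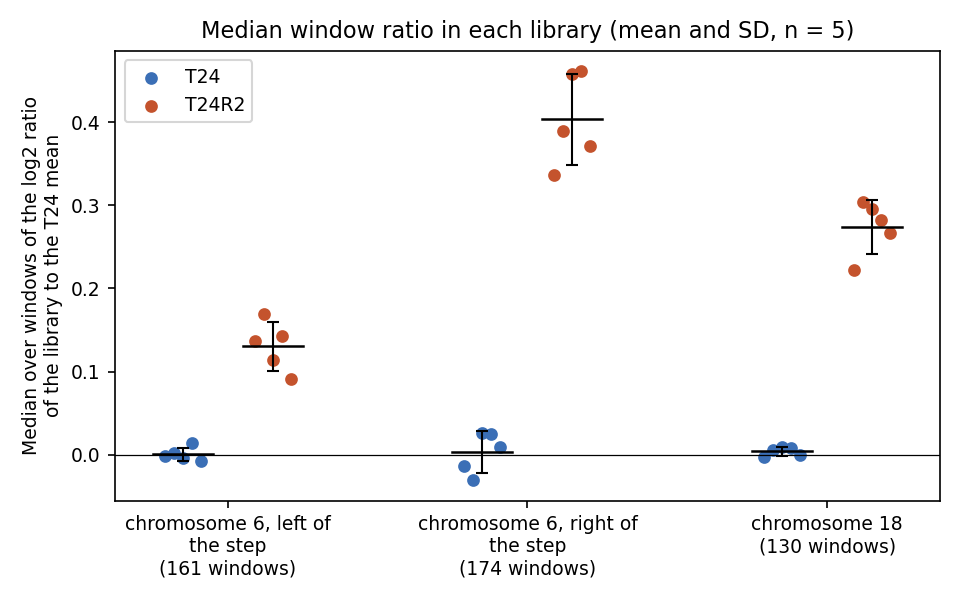
Median over windows of the log2 ratio of each library to the T24 mean, for both sides of the step on chromosome 6 and for chromosome 18. Points are libraries, and bars give the mean and SD of 5. T24R2 libraries lie above T24 libraries in all 3 stretches and highest on the right side of the step (mean 0.40).

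The step was small and depended on the settings of the search. Its gain in fit was 1.2 times the penalty. Of 17 other settings, 4 could not remove it by construction (other scalings, the replicate block and a smaller penalty). Of the other 13, it was found in 7, among them a shortest segment of 4 windows, which could not remove it either. It was absent in 6, with windows of 0.5 Mb or 1 Mb, with a minimum sum of 1000, with absolute in place of squared deviations, without clipping of extreme ratios and with a larger penalty. Where it was found, its left border lay between 44.50 and 83.25 Mb. Searches that left out 1 library found it in all 10 cases, between 72.25 and 80.25 Mb, with a height of 0.22 to 0.29. Of the 22 steps that the same search found on 14 autosomes, that of chromosome 6 was the smallest, and the other 21 ranged from 0.44 to 1.71 with a median of 0.83.

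The windows next to the step did not move as blocks. On the left, the last 6 kept windows were led by EEF1A1 (0.32), CD109 (1.05), COL12A1 (−0.09), TMEM30A (−0.55), SENP6 (0.82) and MYO6 (−0.60). On the right, the first 6 were led by IRAK1BP1 (0.97), PHIP (0.53), LCA5 (0.01), ELOVL4 (−0.32), TTK (0.16) and the gene ENSG00000233967 (0.95). MYO6 (chr6:75749201-75919537), which encodes a myosin that moves toward the minus end of actin filaments, had 114, 115, 130, 119 and 112 CPM in T24 and 71, 79.8, 79.6, 81.7 and 78.5 CPM in T24R2. It was called lower, with a log2 fold change of −0.59 ± 0.053 (SE), and the lines did not overlap. With scaling by library size alone it was at −0.43 and was not called. IRAK1BP1 (chr6:78867551-78946440), a binding protein of the kinase IRAK1, had 6.12, 7.79, 7.43, 7.10 and 7.45 CPM in T24 and 13.9, 13.8, 15.2, 14.2 and 13.4 CPM in T24R2. It was called higher (0.97 ± 0.12), and again no library of one line reached the other. The longest run of kept windows above 0 on chromosome 6 lay on the right side, 30 windows from 82.75 to 106.25 Mb with a median ratio of 0.63. In this run, picked for its sign, 17 windows were called higher, beside 23.6% of all windows. Its windows with the highest ratios were led by POPDC3 (3.43), ME1 (2.46), NDUFAF4 (1.97) and the transcriptional repressor BACH2 (1.85). The lowest were led by MMS22L, a protein of replication fork repair (0.05), and MANEA, an endomannosidase (0.08), so the run held windows near 0 as well as high ones.

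No step was found on chromosome 18. The best single cut, between 5.75 and 6.25 Mb, gained 0.196 of the penalty, which ranked 21 of 22 autosomes, and none of 27 other searches cut the chromosome, 3 of which leave the search unchanged by construction. The T24R2 libraries had median ratios above 0 in both parts of the chromosome. The 31 windows left of the gap between 14.25 and 21.00 Mb, which holds the centromere, gave 0.17, 0.31, 0.22, 0.33 and 0.16, and the 99 windows right of it gave 0.25, 0.30, 0.31, 0.26 and 0.29. The T24 libraries lay within 0.05 of 0 in the left part and within 0.02 in the right part. The longest run above 0, also picked for its sign, held 10 windows, from 49.75 to 55.75 Mb, with a median of 0.62 and 6 called higher (23.6% of all windows). It began with ACAA2, an enzyme of fatty acid oxidation (0.81), and MYO5B, a myosin of vesicle transport (1.73), and held the methyl-CpG binding proteins MBD1 and MBD2 (0.64 and 0.65). On chromosome 6 the corresponding gap lies between 58 and 63 Mb, and the medians were 0.12 on the left (142 windows) and 0.36 on the right (193 windows).

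In stretches of 10 Mb the ratios went up and down along both chromosomes. On chromosome 6 the lowest of the stretches with at least 10 kept windows was 30 to 40 Mb, which holds the major histocompatibility complex, with a median of −0.17 over 34 windows. The highest were 150 to 160 Mb (0.64, 23 windows) and 80 to 90 Mb (0.61, 20 windows, 18 of them above 0). The stretch from 130 to 140 Mb stood apart on the right side, with a median of 0.08 over 27 windows. On chromosome 18 the lowest was 30 to 40 Mb (−0.11 over 14 windows), which holds the desmosomal cadherins, and the highest was 10 to 20 Mb (0.55 over 10 windows). These stretches were ordered after their values were known. Ratios of neighbouring windows were nearly unrelated, with Spearman's rho of 0.109 over 334 pairs on chromosome 6 and 0.0216 over 129 pairs on chromosome 18. On the other 20 autosomes it ran from −0.0428 to 0.375 with a median of 0.209. Neighbouring windows share their libraries, and these coefficients are descriptions across windows.

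Most windows were the record of 1 gene. A single gene held most of the counts (over 50%) in 300 of 335 windows of chromosome 6 (89.6%) and 118 of 130 of chromosome 18 (90.8%), and its median share was 93.3% and 96.3%. With the lead gene left out, 180 windows of chromosome 6 and 60 of chromosome 18 still held 100 counts. The median ratios of these same windows were 0.29 and 0.27 with the lead gene and 0.32 and 0.34 without it. The sign was the same with and without the lead gene in 148 (82.2%) and 49 (81.7%) of them, and it turned in 32 and 11. On the left side of the step the median was 0.0878 over the 94 windows that remained, against 0.14 over all 161. On the right side it was 0.53 over 86 windows, against 0.39 over all 174. The sides then differed by 0.44, against 0.25 over all windows, but these are different sets of windows. GC content was hardly related to the ratio (Spearman's rho −0.10 over 335 windows, 0.048 over 130 windows and −0.084 over 5663 autosomal windows).

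Among the windows with large ratios on chromosome 6, some were carried by 1 gene and others were not. Those of PDE10A, FAM83B and CD24 (−8.97, −5.52 and 5.54) held all their counts in that gene, whereas FAM184A and POPDC3 had 55.8% and 69.1% of theirs, with ratios of 3.98 and 3.43 that were 2.67 and 3.61 without them. PDE10A (chr6:165327287-165988117), a phosphodiesterase of cyclic nucleotides, had 44.7, 40.2, 53.5, 52.2 and 45.3 CPM in T24 and 0.275, 0.173, 0, 0 and 0 CPM in T24R2. This is 2185 against 5 counts, a ratio of 510 with a 95% exact interval of 218 to 1570 that covers counting error only. LAMA4 (chr6:112107931-112254939), a laminin chain of vascular basement membranes, had 103, 96.4, 101, 112 and 98.9 CPM in T24 and 0, 0.173, 0.288, 0 and 0 CPM in T24R2, or 4750 against 5 counts, a ratio of 1110 (475 to 3420). Its window stood at −1.96, and at 0.23 without LAMA4, so the neighbours of this gene did not share its difference. In both genes no T24R2 library held over 3 counts, and the fitted log2 values depend on the added count.

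GJA1 (chr6:121435595-121449727), a gap junction connexin whose upstream bases are shown above, had 89.2, 100.5, 89.5, 97.7 and 93.6 CPM in T24 and 3.40, 2.69, 1.92, 4.19 and 4.13 CPM in T24R2 (log2 fold change −4.84 ± 0.10). MAPK13 (chr6:36127809-36144524), a p38 stress kinase, had 49.0, 55.0, 57.3, 53.0 and 55.1 CPM in T24 and 1.29, 0.694, 0.480, 1.07 and 0.393 CPM in T24R2 (−6.07 ± 0.14). C6orf132 fell from 30.9 ± 2.4 to 3.03 ± 1.0 CPM (SD, n = 5), and CRYBG1 from 12 ± 2.0 to 1.42 ± 0.51 CPM. None of these genes, picked for large changes, overlapped between lines (of all windows, 34.8% lay wholly above and 36.4% wholly below in T24R2). TNFAIP3 (chr6:137867214-137883312), a brake on NF-kappa B signalling, had 232, 276, 259, 213 and 253 CPM in T24 and 35.2, 35.5, 42.9, 36.0 and 36.5 CPM in T24R2. CDKN1A (chr6:36676460-36687337), the p21 inhibitor of the cell cycle that p53 induces, had 91.1, 96.6, 99.5, 102 and 99.8 CPM in T24 and 15.3, 11.6, 13, 10.8 and 13.6 CPM in T24R2. Their log2 fold changes were −2.73 ± 0.063 and −2.93 ± 0.075. SOX4, a transcription factor, FKBP5, a chaperone partner that glucocorticoids induce, and the death receptor TNFRSF21 were called lower as well (−2.43, −3.15 and −2.99).

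Genes carrying windows in the other direction on chromosome 6 included ME1 and GCLC, enzymes of redox metabolism that were picked after their values were seen. Redox genes were not tested as a set, and the glutathione transferase GSTA4 of this chromosome was not called (0.39 ± 0.26). ME1 (chr6:83210402-83431051), the malic enzyme that makes NADPH in the cytosol, had 10.2, 10.9, 15.1, 15.5 and 11.7 CPM in T24 and 59.3, 69.3, 77.4, 76.8 and 64.9 CPM in T24R2 (2.46 ± 0.095). Its upstream stretch is the one that holds TGACNNNGC. GCLC (chr6:53497341-53616970), the catalytic subunit of the enzyme that limits glutathione synthesis, had 15, 18.1, 16.9, 14.4 and 13.7 CPM in T24 and 57.1, 56.1, 57.8, 54.9 and 57.3 CPM in T24R2 (1.86 ± 0.078). GCLC lies left of the step and ME1 right of it, and neither overlapped between lines. MAN1A1 (chr6:119177205-119349761), a mannosidase that trims N-glycans in the Golgi, had 0.934, 2.84, 1.14, 3.01 and 3.02 CPM in T24 and 30.7, 30.0, 38.7, 30.3 and 30.7 CPM in T24R2. RPS6KA2, a ribosomal S6 kinase, went from 15.6 ± 2.6 to 105.6 ± 3.5 CPM, and CD24, a glycosylated surface protein, from 0.349 ± 0.27 to 13.8 ± 1.7 CPM. POPDC3, which shares 36.8% of its exon sequence with an opposite gene, had a log2 fold change of 3.38 that may hold counts of that gene.

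The abundant genes of chromosome 6 moved less than the genes above that were picked for large changes, and some of them were called. EEF1A1 (chr6:73489308-73525587), a translation elongation factor and the most counted gene of the chromosome, had 9475, 9008, 8881, 9209 and 9062 CPM in T24 and 11080, 11260, 11610, 11500 and 11720 CPM in T24R2, and its log2 fold change of 0.32 ± 0.035 was under the minimum for a call. HMGA1, an architectural chromatin protein of growing cells, was called lower, from 3836 ± 186 to 1625 ± 84 CPM. On the right side, AKAP12, a scaffold of protein kinase A, averaged 933 ± 65 and 732 ± 24 CPM and was not called (−0.35 ± 0.044). The gene ENSG00000112096.19, without a symbol in the name tables, was called lower, from 890 ± 70 to 418 ± 14 CPM. Gene lists were matched by symbol, so this gene could not be counted in any of them. HSP90AB1, a cytosolic chaperone, was not called (−0.34 ± 0.041), and TUBB, a beta tubulin, was called lower (−0.78 ± 0.047). A list of known chromosome 6 genes had 45 members, of which 44 were found by symbol and SOD2 was not. A member without a symbol in the name tables would be missing from its counts. Of its 39 tested genes, 9 were called higher, 9 lower and 21 neither, with a median of 0.04, beside 24.9% called higher and 26.5% called lower of all genes. The most counted of those called higher was IGF2R, the receptor that clears IGF2, with 167 ± 3.6 CPM in T24 and 289 ± 7.9 CPM in T24R2. ARID1B, a subunit of SWI/SNF chromatin remodelling complexes, went from 62.5 ± 3.8 to 107.9 ± 7.5 CPM, SGK1, a kinase that serum and glucocorticoids induce, from 31.7 ± 5.6 to 57.5 ± 5.0 CPM, and LATS1, a kinase of the Hippo pathway, from 27.0 ± 2.6 to 45.9 ± 4.4 CPM. The cell cycle factor E2F3 and the general transcription factor TBP were called higher as well (0.73 and 0.88), as was the stress-inducible sestrin SESN1 (1.17). In the other direction, MARCKS, a substrate of protein kinase C, fell from 245.8 ± 7.5 to 153.7 ± 7.4 CPM, the kinase PIM1 from 58.7 ± 2.1 to 32.6 ± 0.78 CPM, and TFAP2A, a transcription factor of epithelia, from 40.3 ± 2.5 to 16.2 ± 2.1 CPM. ARID1B, SGK1, LATS1, MARCKS, PIM1 and TFAP2A, all picked as called, did not overlap between lines (of all windows, 34.8% lay wholly above and 36.4% wholly below in T24R2).

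**Figure D4:**
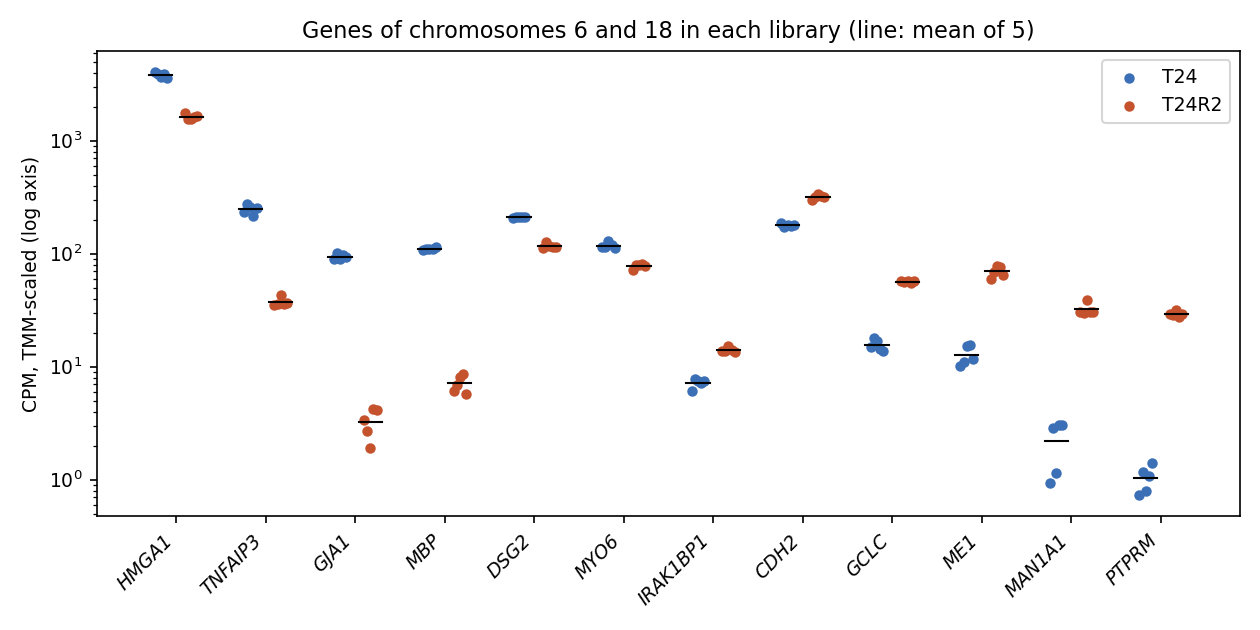
CPM of 12 genes of chromosomes 6 and 18 in each library, on a log axis, with lines at the mean of 5 libraries. T24 (blue) lies above T24R2 (orange) for HMGA1, TNFAIP3, GJA1, MBP, DSG2 and MYO6 and below it for IRAK1BP1, CDH2, GCLC, ME1, MAN1A1 and PTPRM, with no overlap between lines. The genes shown were picked as called.

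Zinc finger genes, many of them in a cluster on the short arm and a few on the long arm, formed one of the lists of chromosome 6. Of 34 zinc finger genes of the chromosome, 24 were tested, and all 24 had fold changes above 0 under TMM scaling. Of all tested genes of the chromosome, 65.9% lay above 0. The 24 signs stayed the same under the 3 other scalings tried, which shift all genes together. Of the 24, 12 were called higher and 0 lower (24.9% and 26.5% of all genes), with a median of 0.57 against 0.01 for all genes, and the 12 others were not called. The 15 tested members between 26 and 29 Mb had a median of 0.74, and 9 were called higher. ZKSCAN8, the most counted, had 37.7, 44.4, 42.9, 54.5 and 44.4 CPM in T24 and 66.7, 69.4, 84.4, 76.7 and 77.5 CPM in T24R2 (0.74 ± 0.073). ZSCAN31 averaged 10.8 ± 1.4 and 38.3 ± 4.3 CPM (1.82), ZBTB2 averaged 15.9 and 36.7 CPM (1.21), and ZNF391 averaged 3.35 ± 1.0 and 12.9 ± 2.1 CPM (1.94). ZNF451 (0.21 ± 0.064), ZNF318 (0.44 ± 0.061) and ZNF292 (0.14 ± 0.077) were not called. The windows led by ZNF184 and ZSCAN31, which hold 6 and 5 tested genes, had ratios of 1.22 and 1.15, and 1.47 and 0.79 without the lead gene. The list includes antisense genes and pseudogenes, and zinc finger genes are similar in sequence, so counts of uniquely mapped fragments may miss part of their transcripts.

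The HLA genes and their neighbours in antigen processing were near the background in the number called lower. Of 16 tested among 46, 5 were called lower, 0 higher and 11 neither (all genes 26.5% lower and 24.9% higher), and 13 lay below 0, with a median of −0.28. When libraries were scaled by size alone, 2 were called lower, 9 lay below 0 and the median was −0.11. HLA-E (chr6:30489509-30494194), a nonclassical class I molecule, had 437, 350, 376, 471 and 364 CPM in T24 and 173, 151, 135, 148 and 152 CPM in T24R2 (−1.39 ± 0.062). TAPBP, which loads peptides on class I molecules, was called lower, from 52.2 ± 3.1 to 23.7 ± 1.2 CPM. TAP1, a peptide transporter, PSMB9, a subunit of the immunoproteasome, and HLA-DPA1, a class II chain, were the other 3 called lower (−0.60, −0.58 and −0.62), and all 3 were not called with scaling by library size (−0.44, −0.41 and −0.45). The HLA-DPA1 libraries of the lines overlapped. PSMB8, another subunit of the immunoproteasome, was not called (0.28 ± 0.075). HLA genes are alike and vary between people, and TAPBP has 28.4% of its exon sequence opposite another gene.

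Other lists of chromosome 6 were mixed or hardly measured. Only 5 of 67 histone genes were tested, all with a mean under 5 CPM, and 1 was called higher (H3C6, 1.1, not called without T24 replicate 2, where it was 0.87) and 1 lower (H1-2, −0.86). Of all genes, 24.9% were called higher and 26.5% lower. In H3C6 and H1-2 the libraries of the lines overlapped. H2BC12 (−0.01 ± 0.20), H2AC6 (−0.08 ± 0.26) and H2BC5 (0.32 ± 0.32) were not called. The median was −0.01, and 0.16 with scaling by library size. Replication-dependent histone transcripts lack a poly(A) tail. Of 9 tested TRIM and butyrophilin genes among 20, 1 was called higher (TRIM26, 0.88), 2 lower and 6 neither (all genes 24.9% higher and 26.5% lower), with a median of 0.08. BTN2A2 and BTN3A1, which belong to the immunoglobulin superfamily, were called lower (−0.62 and −0.60), though not with scaling by library size (−0.46 and −0.44). TRIM27 (−0.29 ± 0.069), BTN3A2 (−0.28 ± 0.074), BTN2A1 (0.22 ± 0.072) and TRIM38 (0.30 ± 0.087), the most counted of the list, were not called. Of the GSTA glutathione transferases, 1 of 12 was tested, and GSTA4 was not called (0.39 ± 0.26).

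**Figure D5:**
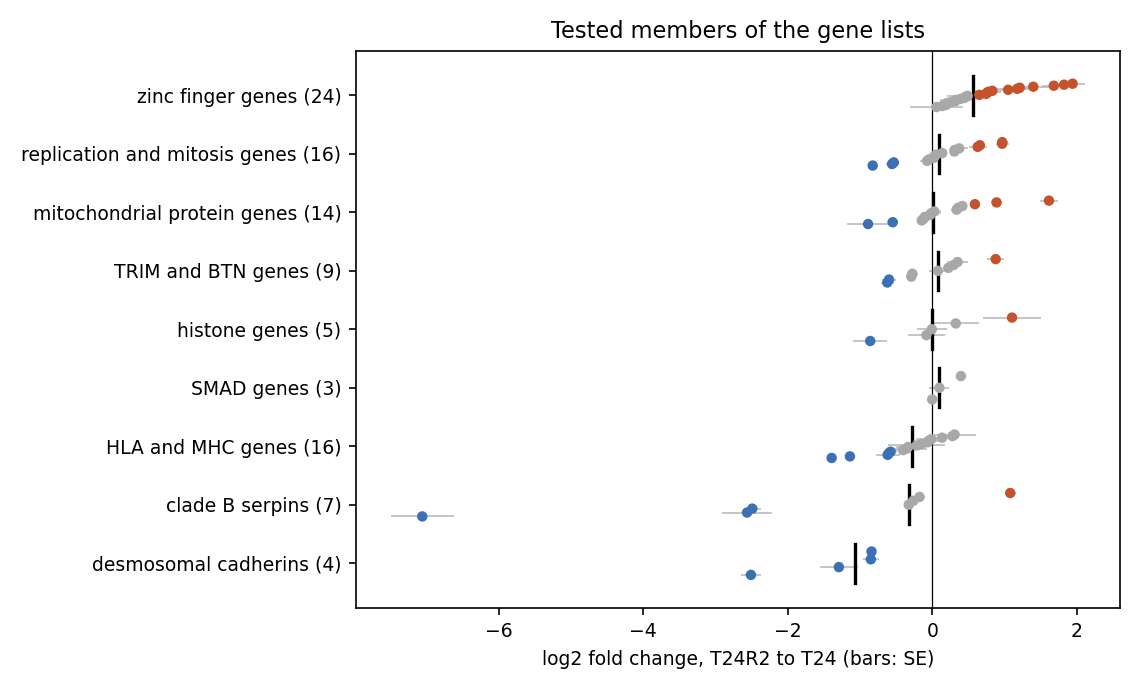
Log2 fold change of T24R2 to T24 with its SE for the tested members of 9 gene lists of chromosomes 6 and 18, with the number of members in brackets. Orange and blue points were called higher and lower, grey points were not called, and black bars are list medians. All 24 zinc finger genes lie right of 0 and all 4 genes of the desmosomal cluster left of it, with medians of 0.57 and −1.07.

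On chromosome 18 the extremes were again single genes. LDLRAD4 (chr18:13217498-13652755), a membrane protein that dampens TGF-beta signalling, had 0, 0.105, 0.800, 0.108 and 0.756 CPM in T24 and 19.9, 21.5, 25.2, 21.0 and 18.8 CPM in T24R2. PTPRM (chr18:7566782-8406861), a receptor tyrosine phosphatase of cell contacts, had 0.727, 1.16, 0.800, 1.08 and 1.40 CPM in T24 and 29.3, 28.4, 31.5, 27.4 and 29.5 CPM in T24R2 (4.80 ± 0.15). MBP (chr18:76978827-77133683), known as a myelin protein and also transcribed outside the nervous system, had 109, 111, 109, 110 and 114 CPM in T24 and 6.06, 6.94, 8.16, 8.64 and 5.70 CPM in T24R2 (−3.96 ± 0.080). RNF165, a ubiquitin ligase, had 333 counts in T24 and 5 in T24R2, a ratio of 77.8 (95% exact interval 33 to 241). EPB41L3, which ties the membrane to the actin skeleton, had 162 counts in T24 and 1 in T24R2 (ratio 189, interval 33.5 to 7520).

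Genes called higher on chromosome 18 came from several pathways. PIK3C3 (chr18:41955234-42087830), the lipid kinase of autophagy whose upstream bases are shown above, had 29.9, 27.4, 32.8, 28.1 and 29.3 CPM in T24 and 74.7, 77.1, 91.5, 80.7 and 87.0 CPM in T24R2 (1.48 ± 0.068). USP14, a deubiquitinase of the proteasome, went from 82.2 ± 1.3 to 178 ± 8.8 CPM, and SEC11C, a subunit of the signal peptidase, from 8.62 ± 0.81 to 31.4 ± 1.8 CPM. USP14 led the first window of the chromosome, at 1.13, and the other genes of that window gave 1.16. NPC1, which exports cholesterol from lysosomes, and BCL2, which blocks apoptosis, were called higher (0.75 and 1.21). PMAIP1, a promoter of apoptosis that p53 induces, and LPIN2, a phosphatidate phosphatase, were called lower (−0.67 and −1.48). Of the 4 most counted genes of the chromosome, 3 lay below 0 and ATP5F1A above it. TUBB6, a beta tubulin, averaged 595 ± 68 and 418 ± 9.0 CPM (−0.51 ± 0.052, just past the minimum), and the myosin light chains MYL12A and MYL12B had fold changes of −0.44 ± 0.043, not called, and −0.60 ± 0.042, called lower. TUBB6 has 21.2% of its exon sequence opposite another gene. It was not called with scaling by library size (−0.34) or upper quartile (−0.43), or without T24 replicate 2, 3 or 5 or T24R2 replicate 1 or 2 (−0.50 to −0.47), and MYL12B was not called by library size (−0.44). Of 40 tested genes of a list of known chromosome 18 genes, 11 were called higher, 13 lower and 16 neither (all genes 24.9% and 26.5%), with a median of −0.08 (0.08 with scaling by library size) against 0.31 for all tested genes of the chromosome. Among those called higher were YES1, a kinase of the Src family (89.5 ± 4.2 to 144.4 ± 3.6 CPM), the thioredoxin-like TXNL1 (52.0 ± 2.7 to 90.4 ± 6.2 CPM) and SEH1L, a nucleoporin (47.3 ± 1.6 to 77.6 ± 7.3 CPM). Among those called lower were GATA6, a transcription factor (34.4 ± 2.2 to 21.1 ± 1.7 CPM), PHLPP1, a phosphatase of the kinase AKT (34.0 ± 2.2 to 13.5 ± 2.7 CPM), and CYB5A, a cytochrome b5 (20.2 ± 1.3 to 8.15 ± 1.8 CPM). None of these 6, all picked as called, overlapped between lines (of all windows, 34.8% lay wholly above and 36.4% wholly below in T24R2). That list was drawn up from well studied genes and does not stand for the chromosome.

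The cadherins of chromosome 18 differed in direction. CDH2 (chr18:27932879-28177946), the N-cadherin of mesenchymal cells, had 185, 174, 178, 176 and 178 CPM in T24 and 297, 317, 338, 322 and 318 CPM in T24R2 (0.84 ± 0.044). The desmosomal cadherins hold epithelial cells together. DSG2 (chr18:31498177-31549008) had 206, 212, 213, 211 and 210 CPM in T24 and 112, 128, 117, 114 and 115 CPM in T24R2 (−0.84 ± 0.046). DSC3 averaged 20.5 ± 2.1 and 3.61 ± 0.83 CPM (−2.51 ± 0.14), and DSC2 averaged 4.94 ± 1.4 and 2.03 ± 1.1 CPM (−1.29 ± 0.27), with overlapping libraries. The antisense gene DSG2-AS1 was called lower too (−0.85 ± 0.11), which makes 4 called lower of 4 tested among the 9 genes of the list (all genes 26.5%), with a median of −1.07. DSG2 lies next to its antisense gene, and the library kit is not described as strand-specific, so reads of the pair cannot be told apart where they overlap. Under all 4 scalings the 4 genes stayed below 0.

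The serpin list held 7 tested genes of 15. SERPINB2, SERPINB7 and SERPINB9 were called lower, SERPINB8 was called higher (28.0 ± 3.6 to 59.1 ± 5.3 CPM), and SERPINB1, SERPINB5 and SERPINB6 were not called. Of all genes, 26.5% were called lower and 24.9% higher. SERPINB2, the plasminogen activator inhibitor 2, went from 47.7 ± 9.0 to 8.45 ± 1.8 CPM. The median of the 7 was −0.33. SERPINB1, SERPINB6 and SERPINB9 lie on chromosome 6, so the same family had members in both stretches. SMAD2 (0.40 ± 0.056), SMAD4 (−0.00 ± 0.061) and SMAD7 (0.10 ± 0.14) were not called, and SMAD2 alone was called higher with scaling by library size (0.56).

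Of 16 tested genes of replication and mitosis on both chromosomes, 4 were called higher, 3 lower and 9 neither (all genes 24.9% higher and 26.5% lower), with a median of 0.09. TYMS (chr18:657653-673578), the thymidylate synthase, had 122, 132, 133, 103 and 125 CPM in T24 and 190, 214, 195, 185 and 185 CPM in T24R2 (0.66 ± 0.056), and 47.5% of its exon sequence lies opposite another gene. NDC80, a kinetochore protein, was called lower (70.1 ± 2.1 to 39.6 ± 3.3 CPM), and so was SMCHD1, a chromatin protein of the silent X chromosome (−0.53 ± 0.068). SMCHD1 was not called by library size (−0.37), by upper quartile (−0.46), or without T24 replicate 4 or T24R2 replicate 1 or 3 (−0.50 to −0.48). The cohesin acetyltransferase ESCO1, the mediator kinase CDK19 and the kinetochore protein SKA1 were called higher (0.97, 0.97 and 0.63), and the centromere protein CENPW lower (−0.56), though not by library size (−0.39) or upper quartile (−0.48). DEK and MCM3 had values of 0.03 and 0.02 and were not called. Of 16 symbols listed for mitochondrial proteins, 14 were found on these chromosomes, and SOD2 and ATP5MF were not. A gene known here only by its ID would be missing from the counts of this list. Of the 14 tested genes for mitochondrial proteins, 3 were called higher, 2 lower and 9 neither (all genes 24.9% and 26.5%), with a median of 0.01. The ATP synthase subunit ATP5F1A (0.41 ± 0.042), the protease AFG3L2 (0.36 ± 0.048) and COX7A2 (−0.15 ± 0.058) were not called, although the first 2 were called higher by library size (0.58 and 0.52), and NDUFAF4, an assembly factor of complex I on the right side of the step, was called higher (6.25 ± 0.99 to 19.2 ± 1.6 CPM). MRPL18, a protein of the mitochondrial ribosome, and MTRF1L, a mitochondrial release factor with 37.8% of its exon sequence opposite another gene, were the other 2 called higher (0.59 and 0.89).

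Some genes were measured in 1 line and almost not in the other. No library of one line held over 3 counts, while the other line carried the gene past the filter, for 15 genes of chromosome 6 (11 measured in T24, 4 in T24R2) and 5 of chromosome 18 (4 and 1). These were 1.98% and 2.08% of the tested genes of the chromosomes, beside 407 of 16181 genes in all (2.52%, 242 measured in T24 and 165 in T24R2). Since such genes pass the filter only through the line in which they are high, the counts are a description. Beside PDE10A and LAMA4, the genes measured in T24 included TNF, a cytokine of inflammation (223 against 2 counts, ratio 130, interval 35.6 to 1080), POU5F1, a transcription factor of pluripotent cells that has near-identical pseudogene copies (154 against 1, ratio 180, interval 31.8 to 7150), and MDFI, an inhibitor of myogenic factors (201 against 1, ratio 235, interval 41.7 to 9320). On chromosome 18, EMILIN2, an extracellular matrix glycoprotein (236 against 3, ratio 91.9, interval 31.1 to 449), was among them. The reverse held for FAM184A, with 330 counts in T24R2 and 0 in T24, which is at least 18.9-fold higher against a floor of 3 counts per library. FGD2, an exchange factor of the GTPase CDC42, had 160 counts in T24 and 0 in T24R2, at least 12.5-fold higher in T24 by the same floor. FAM184A led the window next to that of MAN1A1, and these windows stood at 3.98 and 4.

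Where a window held several tested genes, the ratio without its lead gene could be set beside the whole. GCLC had 83.7% of the counts of its window, which stood at 1.91, and the rest gave 2.2. The window of TYMS, with 5 tested genes, stood at 0.65 with and without TYMS, and that of EPG5, an autophagy gene, at 1.33 and 1.17. The window of TUBB, with 16 tested genes in the major histocompatibility complex, stood at −0.39 and −0.18, and that of the ribosomal protein gene RPS18, with 14, at −0.21 and −0.15. Other windows turned sign without their lead gene, as did those of HLA-E (−1.31 to 0.69), HMGA1 (−1.22 to 0.51), AKAP12 (−0.25 to 0.87), PTK7 (−0.08 to 0.14) and, on chromosome 18, TUBB6 (−0.32 to 0.37).

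At the threshold of 100 counts, the last windows kept on chromosome 6 were led by SCAT8 (103 counts, ratio 0.39) and ENSG00000260000 (109 counts, 1.25), and the first left out by MYLK4 (82 counts, 1.19) and DDO (78 counts, −3.52). On chromosome 18 the last kept were led by LIPG (107 counts, −4.54) and DSEL (109 counts, −0.90), and the first left out by RPL7AP66 (87 counts, 0.06) and ENSG00000263551 (84 counts, −1.28). At such sums a ratio rests on about 10 counts per library.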

How the data were processed

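Alignment by the authors used STAR 2.7.0 on the hg38 build. Multiply mapped and duplicate reads were removed in samtools 1.10, and featureCounts 2.0.1 assigned fragments to GENCODE release 39 genes at strand option 1. The deposited values were raw counts for 61533 genes in 10 libraries. Removal of duplicates may lower the most abundant transcripts, and the NEBNext Ultra II kit is not described as strand-specific, so overlapping genes on opposite strands cannot be separated with certainty.

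Counts were summed in windows of 0.25 Mb by gene midpoint. edgeR 4.0.16 in R 4.3.3 was run on all genes and all windows (TMM, filterByExpr for genes, glmQLFit, glmQLFTest, Benjamini-Hochberg). Steps were sought by optimal partitioning in Python 3.11.15, with ratios clipped at 3 robust SDs, a penalty of 3 times the variance between neighbours times the logarithm of the number of windows, and segments of at least 8 windows. Both were run on simulated data. For the step search, the run was required to find only planted steps far higher than that of chromosome 6. It therefore does not show that a step of that height would be found. The windows, gene lists and rules were chosen with earlier results of these data known. The naming rule took, per segment, the 2 tested genes with the highest mean CPM and the 2 called genes with the largest change at a mean of at least 10 CPM, the genes flanking a step and up to 4 per list, 54 genes in all, and 71 others were chosen after their values were seen. A gene that the rule selects is not reported here. DESeq2 1.42.0 and the other alternatives are described with the limits. Intervals cover counting error only. Sequences were read from RefSeq promoter tables.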

Additional observations from a re-analysis of the deposited data

Results flagged for a closer look

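Of 262 sets of 5 libraries examined, 16 held a library whose distance from the nearest of the others exceeded Dixon's 95% limit, where chance alone gives about 13.1. In the library T24R2 replicate 1, the share of counts on chromosome 18 was 1.04%, against 1.08 to 1.09% in the other T24R2 libraries and at most 0.903% in T24. The same library had PSMB8 at 50.01 CPM (others 40.7 to 41.9), ZNF292 at 37.9 CPM (others 43.2 to 44.9), BTN2A2 at 22.1 CPM (others 17.9 to 18.8), SERPINB9 at 0.184 CPM and MDFI at 0.0918 CPM (others 0 in both). T24R2 replicate 3 had MAN1A1 at 38.7 CPM (others 30.0 to 30.7), TNFAIP3 at 42.9 CPM (others 35.2 to 36.5), PHLPP1 at 18.2 CPM (others 11.8 to 13.2), NFATC1 at 4.13 CPM (others 1.77 to 2.14) and EPB41L3 at 0.0960 CPM (others 0). T24R2 replicate 5 had SOX4 at 11.7 CPM (others 16.9 to 18.2), and T24R2 replicate 2 had FAM83B at 0.0867 CPM and T24R2 replicate 4 POU5F1 at 0.0891 CPM (others 0 in both). Among T24 libraries, replicate 4 had CD109 at 48.5 CPM (others 40.8 to 41.5) and replicate 1 had EPB41L3 at 2.49 CPM (others 3.68 to 3.78). Each of these libraries stayed outside the range of the other line, with the exception of that with the ZNF292 value.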

How the results depend on the processing

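On chromosome 6 the number of steps went from 1 to 0 with windows of 0.5 Mb or 1 Mb, a minimum sum of 1000, absolute deviations, a penalty multiplier of 5 and no clipping. It stayed at 1 in the other settings and without each library in turn (1 to 1). Of those settings, 4 and also the shorter minimum segment could not remove the step by construction. Chromosome 18 had 0 in all. The median left of the step, 0.14 in the report, was 0.30 with library size only, 0.21 with upper quartile, 0.0907 as the median of tested genes, 0.0833 with a minimum sum of 1000, 0.0556 without genes overlapped on the opposite strand and 0.0878 without lead genes, an alternative added after the data were seen, and ran from 0.0891 (without T24 replicate 2) to 0.18 as libraries were left out. The median right of the step, 0.39, was 0.55, 0.46, 0.30 and 0.53 with library size only, upper quartile, a minimum sum of 1000 and no lead genes, and 0.37 to 0.41 as libraries were left out. For chromosome 18, 0.29, the first 2 gave 0.45 and 0.36 and the removal of lead genes 0.34, and leaving out libraries gave 0.27 to 0.30. The scaling adds 1 shift to every window and leaves the height of the step at 0.25. With a minimum fold change of 1, calls went from 392 to 187 genes on chromosome 6, from 128 to 61 on chromosome 18 and from 239 to 110 windows, and with no minimum to 389 windows. Leaving out libraries gave 386 to 397 genes, 128 to 135 genes and 232 to 238 windows. Same-numbered libraries of the 2 lines shared only a number (correlation of deviations 0.0089 to 0.068), and a replicate block left the ratios unchanged by construction and gave 388 genes, 126 genes and 237 windows. Of 125 named genes, 109 kept their side of the threshold throughout, and the other 16 changed with the scaling or a left-out library, as with MRPL14, a mitochondrial ribosomal protein (−0.55, and −0.50 without T24R2 replicate 3). DESeq2 gave 467 genes on chromosome 6 and 175 on chromosome 18, within 1.5 times of the counts above.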
